A study of Mus musculus with 2 samples.

Results

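Residency and tissue-exit genes are described here as a set of 9 named genes, of 32285 genes in the deposited matrices: S1pr1, Klf2, Cd69, Rgs1, Itgae, Itga1, Itga4, Itgb7 and Ahr. They were chosen by symbol, for their known roles in keeping lymphocytes in a tissue or letting them leave it, and all 9 were found in both matrices. Their levels and their joint detection in single cells were read in T, NK, innate lymphoid (ILC) and gamma-delta T cells. The cells came from pancreatic islets of NOD mice, which become diabetic through autoimmunity. One library was made from female WT NOD mice and one from female NOD.Cxcl16-/- mice, both aged 12 weeks, and how many animals each holds is not given in the labels. Islets were hand-picked after collagenase perfusion of the pancreas and dispersed without enzymes. Live cells positive for CD45, which marks leukocytes, and negative for CD31, an endothelial marker, were sorted and run on the 10x Genomics 3' v3.1 chemistry. Below, paired values give the WT NOD library first and the library labelled NOD.Cxcl16-/- second.

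Lymphocytes leave tissues by following sphingosine-1-phosphate (S1P), which is high in blood and lymph, through the receptor encoded by S1pr1. The transcription factor KLF2 drives S1pr1, and cells that stay in a tissue keep both low. CD69 binds S1PR1 and takes it off the cell surface, RGS1 dampens signalling from chemokine and related receptors, integrins hold cells to epithelium, matrix or vessel wall, and the ligand-activated factor AHR is needed for some lymphocytes to persist in barrier tissues. CXCL16, the protein encoded by Cxcl16, is the ligand of CXCR6, a receptor found on many resident and activated T cells.

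The matrices held 13859 and 10554 cell barcodes with 93553185 and 98681133 unique molecular identifiers (UMIs, 1 per captured transcript molecule), and 45 barcode sequences occurred in both. After filtering, 10718 and 9323 cells were kept, with a median of 3872 and 4894 UMIs. Cxcl16 itself was detected in both libraries, at 103.3 and 102 CPM over all barcodes, where CPM is a gene's UMIs per 1000000 UMIs of the same cells. In macrophage- or monocyte-gated cells the WT NOD library gave 757.7 CPM (709.3 to 808.7) and the other 448.9 CPM (427.5 to 471). The order was the opposite in B cells, at 6.531 and 15.59 CPM, and over all kept cells, at 68.39 and 92.63 CPM. A 3' tag does not show whether the transcript is intact, so the genotype could not be checked, and the library is called by its label throughout. Each group has 1 library, so no difference between them has a replicate check, no p-value is given, and animal, preparation and genotype cannot be told apart. Every interval is a 95% exact Poisson or binomial interval, which covers counting error only.

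Cell types were gated on marker UMIs in single cells, with none of the 9 genes among the markers. The gates held 2591 and 1540 CD8 T cells, 1270 and 1305 CD4 T cells, 271 and 423 regulatory T cells (Treg), 121 and 100 gamma-delta T cells, and 86 and 67 NK cells, a gate that also admits ILC1. The ILC2 gate held 18 and 36 cells, so its values are loose. Some marker lists outside the gates set their gate apart. The sum of Il2ra, Ikzf2 and Ctla4 was 2745 and 2776 CPM in Treg against 1104 and 1141 CPM in CD4 T cells. The sum of Gzma, Klra8, Prf1, Eomes and Klre1 was 5908 and 7005 CPM in NK cells against 371 and 333.3 CPM in CD8 T cells. Other lists did not. Trac, Cd40lg and Cd5 summed to 1097 and 1124 CPM in CD4 T cells and 1111 and 1128 CPM in Treg. In the dendritic cell gates, Irf8, Wdfy4 and Cd24a summed to 1619 and 1471 CPM in cDC1, their own gate, and 2233 and 1845 CPM in pDC. Of the cells with at least 2 CD3 UMIs, 3250 and 2337 met no gate and were left out.

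S1pr1, the exit receptor (chr3:115710433-115715072, minus strand, GRCm38), was highest in CD4 T cells in both libraries. Its level there was 222.7 CPM (211.9 to 234) and 252.2 CPM (241.9 to 262.9). CD8 T cells held less in each library, 91.18 CPM (86.73 to 95.79) and 97.7 CPM (92.37 to 103.3). Treg stood at 145.3 and 123.6 CPM and gamma-delta T cells at 154.9 CPM (123.7 to 191.5) and 101.9 CPM (75.12 to 135.1), and these neighbours overlapped within each library. NK cells were lower, at 54.14 CPM from 17 UMIs and 33.15 CPM from 10 UMIs. ILC2 gave 0 and 5 UMIs, and 0 UMIs in the WT NOD library allow a level of up to 48.49 CPM. The receptor was near absent from myeloid gates, at 0 and 3.524 CPM in macrophages or monocytes, while B cells held 108.9 and 89.54 CPM.

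Klf2, which encodes the factor upstream of S1pr1 (chr8:72319033-72321656, plus strand, GRCm38), followed another order. It was highest in B cells, at 1132 and 874.4 CPM, and lowest in Treg, at 209.8 CPM (188.7 to 232.6) and 162.4 CPM (149 to 176.6). NK cells held 729.3 CPM (637.9 to 830.1) and 586.8 CPM (503.5 to 679.9), and gamma-delta T cells 592.3 and 632.5 CPM with overlapping intervals. CD4 T cells held 458.5 and 363.7 CPM, CD8 T cells 375 and 348.2 CPM, and ILC2 381.2 and 219 CPM. NK cells were thus among the highest of the lymphoid gates for Klf2 and, beside ILC2, the lowest for S1pr1. The sequence just upstream of the Klf2 start is shown because KLF2 is the hub of the exit programme and MEF2 factors are known to drive it. It is the RefSeq promoter entry for GRCm38.p6, plus strand, chr8:72318812-72319032. Capitals mark 2 overlapping matches to the MEF2-type motif CTANNNNTA, a match on each strand. The marked stretch reads the same on both strands.
Klf2: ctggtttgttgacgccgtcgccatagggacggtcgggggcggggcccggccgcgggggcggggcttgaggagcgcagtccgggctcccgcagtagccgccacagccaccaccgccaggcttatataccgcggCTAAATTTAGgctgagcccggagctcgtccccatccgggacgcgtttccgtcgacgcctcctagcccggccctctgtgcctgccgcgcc
The motif occurs in 19% of 32851 promoter entries over the 250 bases before the start, and the matches are a description of the letters, not a site.

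Cd69, the antagonist of S1PR1 at the cell surface (chr6:129267325-129275436, minus strand, GRCm38), was, among the lymphoid gates, high in gamma-delta T cells and ILC2 but not in NK cells. Gamma-delta T cells held 605 CPM (541.7 to 673.8) and 596.5 CPM (528.8 to 670.4), and ILC2 762.4 and 623.4 CPM. CD8 T cells held 260.4 and 245.5 CPM, CD4 T cells 311.5 and 262.8 CPM, and NK cells 238.8 and 175.7 CPM. Treg held 270.3 CPM (246.3 to 296) and 178.2 CPM (164.2 to 193.1). Cd69 transcript was thus higher in gamma-delta T cells than in CD8 T, CD4 T, Treg and NK cells in both libraries, with no overlap of intervals. B cells held 625.2 and 519.6 CPM, so a high level was not particular to T cells.

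Rgs1 (chr1:144242296-144249242, minus strand, GRCm38), whose product shortens signals from G-protein-coupled receptors, was low in B cells and high in Treg and ILC2. Treg held 1465 CPM (1408 to 1523) and 1397 CPM (1357 to 1437), against 459.6 and 538.2 CPM in CD8 T cells and 778.4 and 751.6 CPM in CD4 T cells. ILC2 held 1564 CPM (1296 to 1872) and 1443 CPM (1272 to 1631), which overlapped Treg in both libraries. Gamma-delta T cells held 951.3 CPM (871.4 to 1037) and 1490 CPM (1382 to 1605), and NK cells 729.3 and 848.6 CPM. B cells held 103.5 and 156.1 CPM. Treg thus combined the lowest Klf2 with one of the highest Rgs1 levels. A low Klf2 with a high Rgs1 was not particular to Treg. Macrophages or monocytes held Klf2 at 251.2 and 200.3 CPM and Rgs1 at 1211 and 1338 CPM.

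Itgae encodes integrin alpha E, also called CD103, which pairs with beta 7 and binds E-cadherin on epithelium (chr11:73090583-73147446, plus strand, GRCm38, overlapping Haspin on the minus strand). It was highest in Treg in both libraries, at 120.3 CPM (104.5 to 137.9) and 71.64 CPM (62.86 to 81.3). Conventional T cells held far less, 13.87 CPM (12.17 to 15.74) and 21.29 CPM (18.84 to 23.97) in CD8 T cells and 11.38 and 7.219 CPM in CD4 T cells. Gamma-delta T cells held 25.51 and 29.72 CPM from 14 UMIs in each library. NK cells gave 3 and 1 UMIs and ILC2 0 and 2. The cDC1 gate, a dendritic cell type known to carry CD103, held 40.23 and 47.74 CPM, and B cells 1.833 and 2.682 CPM.

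Itga1 encodes integrin alpha 1, or CD49a, a collagen and laminin receptor that also marks ILC1 (chr13:114953096-115101964, minus strand, GRCm38, overlapping Pelo, Gm49395 and Gm10734). It was highest in 2 gates in each library. NK cells held 89.17 CPM (59.25 to 128.9) and 96.14 CPM (64.38 to 138.1), and gamma-delta T cells 67.43 CPM (47.48 to 92.94) and 74.29 CPM (51.75 to 103.3), and these overlapped. CD8 T cells held 11.04 and 10.14 CPM, CD4 T cells 3.232 and 3.61 CPM, and Treg 6.394 and 3.582 CPM. In ILC2 no UMI was found, which allows up to 48.49 and 20.72 CPM.

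Itga4 encodes integrin alpha 4, which pairs with beta 1 to bind VCAM-1 or with beta 7 to bind MAdCAM-1 (chr2:79255426-79333123, plus strand, GRCm38, overlapping Cerkl on the minus strand). CD8 T cells held 263.9 and 290.3 CPM, CD4 T cells 284.5 and 274.3 CPM, and Treg 221.5 and 266.2 CPM. Gamma-delta T cells held 164 CPM (131.9 to 201.6) and 140.1 CPM (108.3 to 178.2), below CD8 and CD4 T cells in both libraries. NK cells held 149.7 and 205.5 CPM. ILC2 held 92.02 CPM from 7 UMIs and 106.7 CPM from 19 UMIs.

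Itgb7, the beta 7 partner of both alpha E and alpha 4 (chr15:102215995-102231944, minus strand, GRCm38), was spread over all lymphoid gates. CD8 T cells held 144.5 and 147.8 CPM, CD4 T cells 125.1 and 118.1 CPM, Treg 202.9 CPM (182.1 to 225.3) and 207.1 CPM (192 to 223.2), and NK cells 172 and 135.9 CPM. Gamma-delta T cells held 207.8 CPM (171.4 to 249.6) and 352.4 CPM (300.8 to 410.2), and ILC2 315.5 and 207.8 CPM. Treg were above CD8 and CD4 T cells in both libraries with no overlap. The Itgb7 promoter is printed because Itgb7 was higher in CD8 and CD4 T cells with an S1pr1 UMI, as described below, and KLF factors bind CACCC boxes. It is the RefSeq entry for GRCm38.p6, minus strand, chr15:102231945-102232185, with capitals marking CACCC or, for the other strand, GGGTG.
Itgb7: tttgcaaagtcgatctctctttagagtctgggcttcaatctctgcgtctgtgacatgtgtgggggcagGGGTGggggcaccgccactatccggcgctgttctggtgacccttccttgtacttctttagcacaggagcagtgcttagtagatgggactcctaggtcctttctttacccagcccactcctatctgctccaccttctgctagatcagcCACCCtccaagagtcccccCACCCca
This motif is in 52% of all promoter entries on one strand or the other, so it is common, and a match is a description of the letters, not a site. The entry for Itgb7 held 3 matches, that for Itga4 4 and that for Itga1 2, so matches were not particular to Itgb7. Whether KLF2 acts on Itgb7 was not tested.

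Ahr (chr12:35497974-35535038, minus strand, GRCm38, overlapping Gm48236 on the plus strand) was highest in cDC1, at 180.4 and 184.8 CPM. Among the lymphoid gates above 50 cells it was highest in NK cells, at 98.72 CPM (67.08 to 140.1) and 106.1 CPM (72.56 to 149.8), which overlapped Treg in both libraries. Treg held 65.68 CPM (54.13 to 78.97) and 93.72 CPM (83.64 to 104.7), CD4 T cells 52.69 CPM (47.49 to 58.3) and 75.69 CPM (70.07 to 81.64), and gamma-delta T cells 45.56 and 74.29 CPM. CD8 T cells were lowest in the WT NOD library, at 20.05 CPM (18 to 22.27), and held 44.6 CPM (41.02 to 48.41) in the other. ILC2 gave 4 and 12 UMIs.

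**Figure D1:**
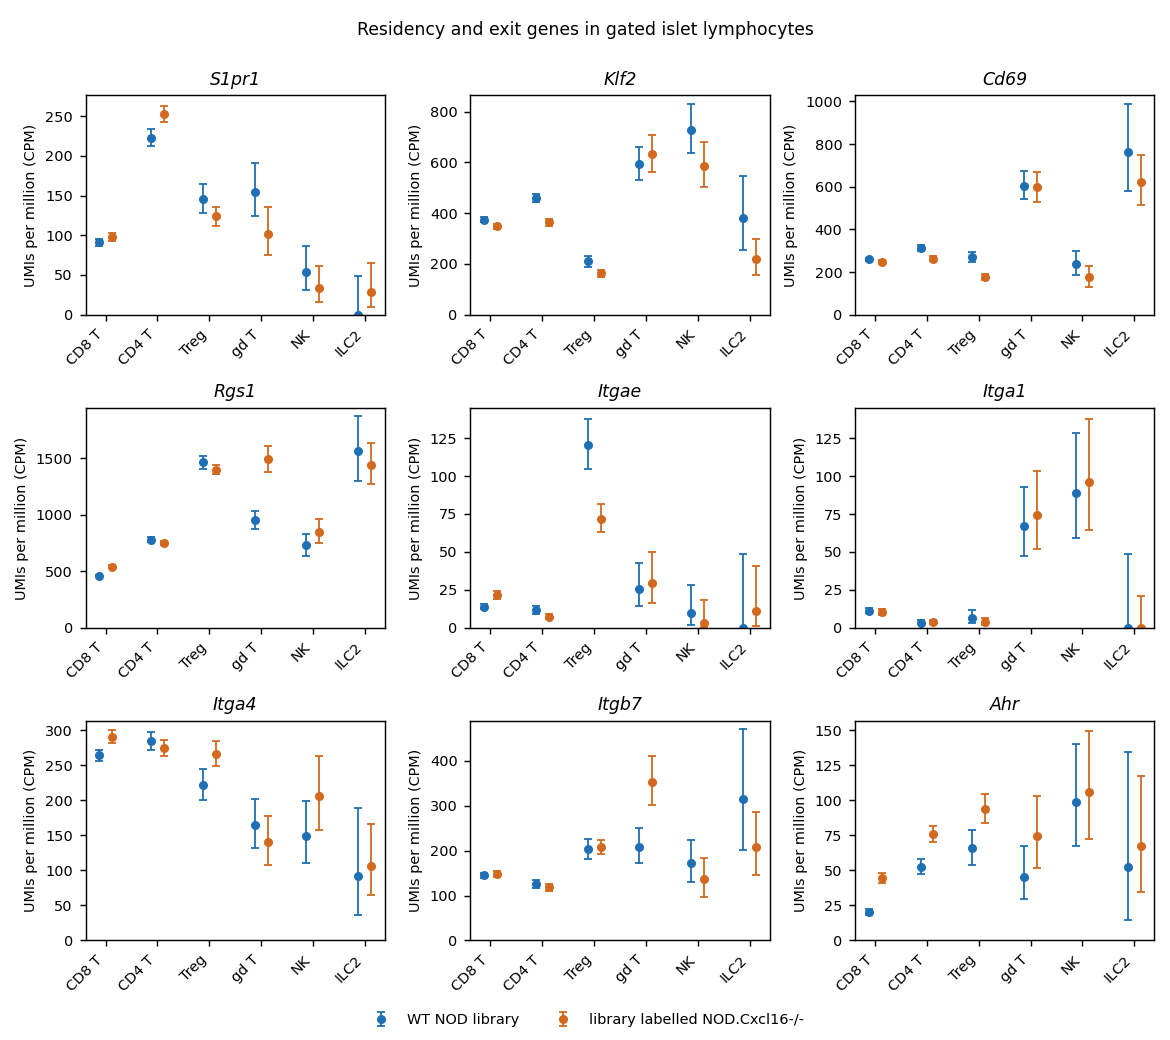
Each panel plots the level of 1 gene (CPM, linear axis from 0) in 6 lymphoid gates, for the WT NOD library (blue) and the library labelled NOD.Cxcl16-/- (orange), with bars for the exact Poisson interval. S1pr1 peaks in CD4 T cells, Itgae in Treg and Itga1 in NK and gamma-delta T cells in both libraries.

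Naive-like and antigen-experienced cells were then compared within each library. Naive-like cells had both Ccr7 and Lef1 and no Cxcr6, and antigen-experienced cells had neither Ccr7 nor Lef1 and at least 1 of Cxcr6, Pdcd1 and Ccl5. These marker choices were made after the data were seen. The CD8 gates held 303 and 223 naive-like and 1399 and 753 antigen-experienced cells, and the CD4 gates 209 and 236 naive-like and 410 and 333 antigen-experienced cells. Log2 ratios are taken on CPM plus 1. Many genes differ between such states: of all genes at 10 CPM or more, 17.7% and 17.7% were past 1.5-fold in either direction in CD8 T cells and 27.9% and 20.7% in CD4 T cells.

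The exit genes S1pr1 and Klf2 were lower in antigen-experienced cells of both lineages. S1pr1 in CD8 T cells was 221.4 CPM in naive-like and 47.45 CPM in antigen-experienced cells of the WT NOD library, and 198 and 53.22 CPM in the other, so it was 4.59 and 3.67 times lower on CPM plus 1. CD4 T cells held 277.7 against 134.4 CPM and 310.7 against 178.6 CPM, or 2.06 and 1.74 times lower. Klf2 went from 761.9 to 267.3 CPM and from 677.5 to 250.5 CPM in CD8 T cells, and was 2.84 and 2.7 times lower, and in CD4 T cells 2.27 and 2.59 times lower. Klf3, a relative of Klf2, differed the same way, with log2 ratios of -1.75 and -1.45 in CD8 T cells and -0.93 and -0.71 in CD4 T cells. Other exit and circulation genes did not. S1pr4 stood at 0.02 and 0.32 in CD8 T cells and was higher in antigen-experienced CD4 T cells, at 0.72 and 0.99. Foxo1 stood at -0.58 and 0.06 in CD8 T cells and -0.10 and -0.09 in CD4 T cells. Antigen-experienced CD4 T cells thus kept more S1pr1 transcript than antigen-experienced CD8 T cells in both libraries.

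The retention genes Cd69 and Rgs1 went opposite ways. Rgs1 was 177.8 CPM in naive-like and 624.4 CPM in antigen-experienced CD8 T cells of the WT NOD library, and 275.5 and 730.9 CPM in the other, log2 ratios of 1.81 and 1.4. CD4 T cells held 274.4 against 1315 CPM and 317.4 against 1276 CPM, log2 ratios of 2.26 and 2.0. Cd69 was lower in antigen-experienced cells, at 397.5 against 228.4 CPM and 381.5 against 230.7 CPM in CD8 T cells and at 423 against 279.5 CPM and 326.2 against 205.4 CPM in CD4 T cells. Transcript was measured and not the surface protein, by which residents are usually defined. Among immediate-early genes, which handling of cells can induce, log2 ratios in CD8 T cells were -0.55 and -0.13 for Fos, -0.67 and -0.18 for Jun, -0.17 and 0.01 for Junb and -0.34 and 0.01 for Dusp1. In CD4 T cells Jun stood at -0.41 and -0.39, but Fos at 0.09 and 0.12, Junb at 0.40 and 0.21 and Dusp1 at 0.53 and 0.58, the other way from Cd69. Their part in the Cd69 values was not tested.

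The integrins and Ahr differed from one another. Itga4 was higher in antigen-experienced than in naive-like CD8 T cells, at 283 against 172.2 CPM and 305.4 against 220.6 CPM, and also in CD4 T cells, at 369.6 against 167.4 CPM and 311.8 against 207.7 CPM. Itgb7 differed little, with log2 ratios of -0.15 and -0.17 in CD8 T cells and -0.15 and 0.06 in CD4 T cells. Itga1 in CD8 T cells was 3.051 CPM from 7 UMIs in naive-like and 15.02 CPM in antigen-experienced cells, and 1.076 CPM from 2 UMIs and 15.23 CPM in the other library. Itgae in CD8 T cells was 17.43 CPM in naive-like and 15.4 CPM in antigen-experienced cells of the WT NOD library and 17.76 and 26.33 CPM in the other, log2 ratios of -0.17 (-0.70 to 0.37) and 0.54 (0.01 to 1.16). Ahr in CD4 T cells was 25.3 CPM in naive-like and 81.48 CPM in antigen-experienced cells, and 30.4 and 93.24 CPM in the other library, log2 ratios of 1.65 and 1.59. In CD8 T cells its log2 ratios were smaller, 0.30 (-0.18 to 0.84) and 0.89 (0.46 to 1.39).

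**Figure D2:**
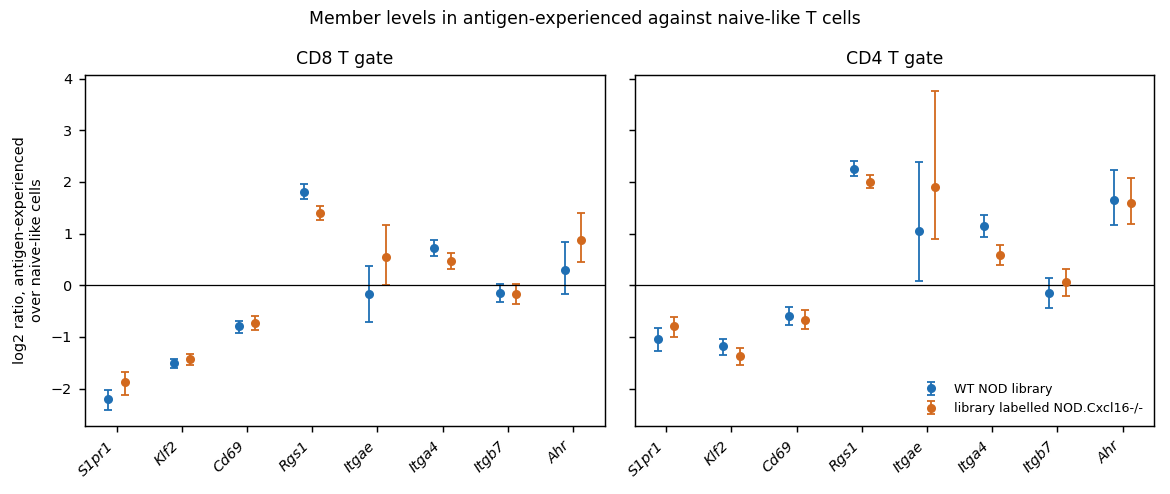
The log2 ratio of the level in antigen-experienced over naive-like cells (CPM plus 1) is plotted for 8 genes in CD8 T cells (left) and CD4 T cells (right), with 1 point per library. S1pr1, Klf2 and Cd69 lie below 0 and Rgs1 above 1 in both lineages and both libraries, and Itga1 is left out for its low counts.

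Of the other genes of residency, Prdm1, which encodes a repressor that acts in resident lymphocytes, was higher in antigen-experienced cells by log2 ratios of 3.0 and 2.52 in CD8 T cells and 3.82 and 2.69 in CD4 T cells. Rgs16, from the family of Rgs1, was higher by 2.36 and 2.89 in CD8 T cells and 2.44 and 2.0 in CD4 T cells. The family was not uniform. Rgs10 was lower in CD8 T cells, at -1.3 and -0.79, and stood at 0.04 and 0.09 in CD4 T cells. Rgs2 stood at 0.52 and 0.71 in CD8 T cells and 0.31 and 0.88 in CD4 T cells. Runx3, a factor of the resident CD8 programme, differed little in CD8 T cells, at 0.12 and 0.07, as did the immediate-early and T cell receptor response gene Nr4a1, at 0.15 and 0.18. These genes were named after their values were seen.

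Joint detection was read in cells thinned to 2000 UMIs, since a deeper cell shows more of every gene, and 514 and 74 CD8 T cells with fewer UMIs were left out. S1pr1 UMIs were found in 16.8% and 19% of the thinned CD8 T cells and in 33.8% and 37.4% of CD4 T cells, and before thinning in 26.9% and 33.5% and in 47.2% and 52.9%. In macrophages or monocytes, whose median depth was 12595 and 13353 UMIs against 4707 and 5624 in CD8 T cells, thinned cells showed S1pr1 in 0 of 93 (upper limit 3.89%) and 0.806%. S1pr1 was detected far more often in cells with a Klf2 UMI. In CD8 T cells it was found in 28.7% (25.8 to 31.8) of cells with Klf2 and 7.59% (6.14 to 9.26) of cells without in the WT NOD library, an odds ratio of 4.91. In the library labelled NOD.Cxcl16-/- the shares were 31.7% (28.1 to 35.5) and 9.67% (7.76 to 11.9), an odds ratio of 4.34. In CD4 T cells they were 54.9% and 16.2%, and 62.7% and 19.9%, with odds ratios of 6.3 and 6.74. Treg gave 46.7% against 15.1% and 45.2% against 14.5%.

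S1pr1 and Klf2 were also found together inside the antigen-experienced cells. Antigen-experienced CD8 T cells showed S1pr1 in 19.6% of cells with Klf2 and 4.32% without, and in 19.1% and 4.73% in the other library. Antigen-experienced CD4 T cells gave 42.6% against 10.1% and 58.4% against 11.4%. Naive-like CD4 T cells gave 58.9% against 36.4% and 62% against 29.3%. Naive-like CD8 T cells gave 45.6% against 20.5% in the WT NOD library, and overlapping intervals in the other. B cells paired the 2 genes less, at 22.8% against 15.3% and 23% against 14.4%, with odds ratios of 1.63 and 1.77.

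**Figure D3:**
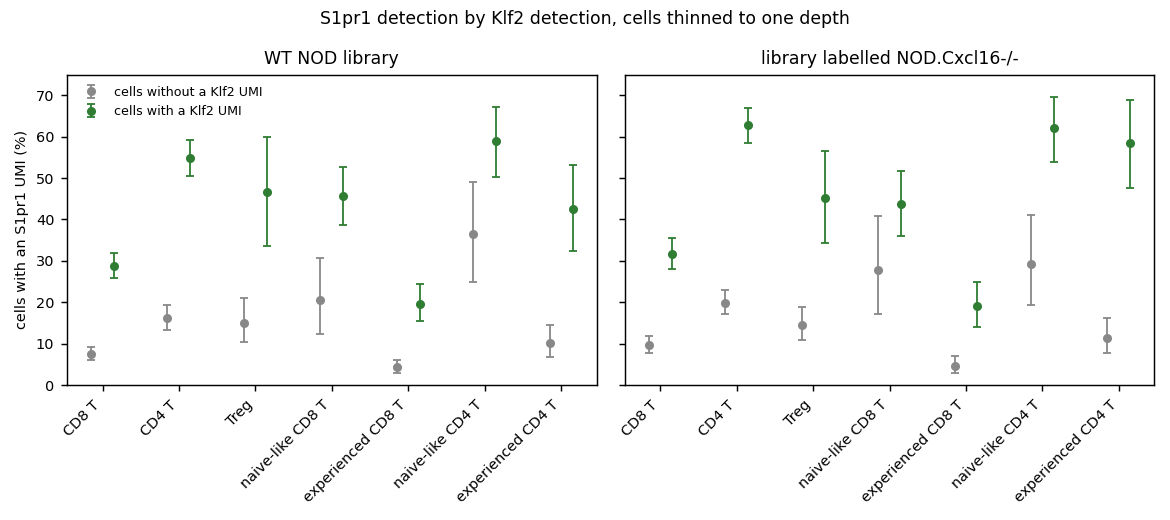
The share of cells with an S1pr1 UMI (%, cells thinned to 2000 UMIs) is plotted for cells with and without a Klf2 UMI in 7 gates, with 1 panel per library and exact binomial intervals. In CD8 T, CD4 T and Treg cells the share is higher with Klf2 in both libraries, with no overlap of intervals.

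Over whole gates, which mix naive-like and antigen-experienced cells, Cd69 and Rgs1 stood on opposite sides of the exit genes in single cells too. S1pr1 was found in 19.8% of CD8 T cells with a Cd69 UMI and 14.9% of those without, and in 24% and 16% in the other library. Klf2 was found in 52.5% of CD8 T cells with Cd69 and 37.8% of those without, and in 51.7% and 36.4%. The Klf2 shares in CD4 T cells were 53% and 40.8%, and 53.3% and 34.4%. With Rgs1 the sign turned: Klf2 was found in 38% of CD8 T cells with an Rgs1 UMI and 48.3% of those without, and in 37.1% and 46.9%. Among CD4 T cells these shares were 37.9% and 53.8%, and 35.5% and 47%. S1pr1 was found in 13.9% of CD8 T cells with Rgs1 and 19.3% without, and in 15.1% and 22.6%. S1pr1 in CD4 T cells was found in 39.3% with Cd69 and 30.4% without, and in 40.9% and 35.6%, which overlap. It was found in 29.6% of CD4 T cells with Rgs1 and 38.4% without in the WT NOD library, with overlapping intervals in the other. Over the whole CD8 gate Cd69 transcript therefore went with both exit genes and Rgs1 transcript against them, and in CD4 T cells this held for Klf2 in both libraries and for S1pr1 in the WT NOD library. Within CD8 states most of this was not resolved. In naive-like, antigen-experienced and remaining CD8 T cells of either library, the intervals overlapped for S1pr1 with Cd69, S1pr1 with Rgs1 and Klf2 with Rgs1. In naive-like cells of the WT NOD library the S1pr1 shares were 35.9% with Cd69 and 41.2% without. Klf2 with Cd69 did not overlap in antigen-experienced CD8 T cells, at 39.6% against 29.5% and 39.3% against 27%. A wide contrast was seen in gamma-delta T cells of the library labelled NOD.Cxcl16-/-, where S1pr1 was found in 7.89% of 76 cells with Rgs1 and 60.9% of 23 without. The WT NOD library gave 16.7% and 32.6%, with overlapping intervals. With the immediate-early gene Junb, Klf2 was found in 44.9% of CD8 T cells against 32.3% without it in the WT NOD library, and in 43.1% and 32.9% in the other, which overlap. In CD4 T cells the shares were 45.4% and 46.7%, which overlap, and 41.6% and 22.9%. The part of handling in the Klf2 and Cd69 pairing was not tested.

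Over whole gates, Rgs1 went with Cxcr6, which encodes the receptor of CXCL16, and S1pr1 went against it. Naive-like cells were gated on having no Cxcr6, so the shares below mix states, and pairing with Cxcr6 within a state is not given. Rgs1 was found in 62.1% of CD8 T cells with a Cxcr6 UMI and 39.8% of those without, and in 71.2% and 39.8%. In CD4 T cells the shares were 81.2% and 45.3%, and 81.6% and 46.6%. S1pr1 was found in 5.61% of CD8 T cells with Cxcr6 and 21.2% without, and in 11.8% and 21.8%. Among CD4 T cells these were 15.9% and 38.4%, and 17.1% and 42.3%. The integrin chains showed less. Itga4 was found in 36.4% of CD8 T cells both with and without Itgb7 in the WT NOD library, an odds ratio of 0.999, but in 43.9% with Itgb1, the beta 1 chain, against 31.2% without, and in 44.6% against 32.2% in the other. The pairing with Itgb1 was not particular to CD8 T cells. CD4 T cells gave 47% against 36.5% and 46% against 32.8%, and B cells 29.8% against 20.7% and 31.7% against 23.6%. Ahr was found in 5.58% of CD4 T cells with S1pr1 and 10.5% of those without, and in 5.88% and 11.9%. In CD8 T cells the shares were 1.43% and 4.92% in the WT NOD library, but 7.19% and 7.58% in the other, which overlap. Treg intervals overlapped in both libraries. Itgae was found in 4.09% of CD8 T cells with Itgb7 and 3.26% without in the WT NOD library, with overlapping intervals.

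Many cells held transcripts of both programmes. Counting S1pr1 or Klf2 as exit and Cd69 or Rgs1 as retention, 33.3% and 33.6% of thinned CD8 T cells held both, 34.9% and 36.4% retention alone, 14.5% and 14.1% exit alone, and 17.3% and 15.9% neither. CD4 T cells held both in 38% and 37.3%, retention alone in 35.4% and 33.8%, and exit alone in 16.3% and 15.4%. B cells held both in 57% and 50.7%, and macrophages or monocytes in 24.7% and 16.1%, so holding both was not particular to T cells. Cd69, counted here as retention, went with the exit genes over the whole CD8 gate. Whether these shares differ from independent detection was not tested. Treg held retention alone in 56.3% and 60.1% of cells, above CD8 and CD4 T cells with no overlap, and exit alone in 4.49% and 3.18%. Naive-like CD8 T cells held exit alone in 31.5% and 26.7% and retention alone in 14.5% and 13.1%, against 9.28% and 9.07% and 44.2% and 50% in antigen-experienced CD8 T cells.

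Cells with a UMI of 1 integrin were then set against cells of the same gate without it. They are deeper cells (Treg with Itgae had a median of 4734 and 5515 UMIs, the others 4334 and 4758), so levels are given as CPM. The 103 and 133 Treg with Itgae held S1pr1 at 81.7 CPM against 180.4 CPM in Treg without, and at 60.66 against 151.2 CPM. They held Rgs1 at 1958 against 1193 CPM and 1773 against 1231 CPM, and Cxcr6 at 236.9 against 99.24 CPM and 339.5 against 137.9 CPM. Il2ra, the interleukin-2 receptor alpha chain, was higher in them, at 143.8 against 86.61 CPM and 137 against 60.13 CPM. Tcf7, a factor of naive and memory-like cells, was lower, at 52.29 against 97.44 CPM and 28.38 against 92.77 CPM. Treg with Itgae thus had lower S1pr1 and higher Rgs1 and Cxcr6 in both libraries, with no overlap of intervals. Klf2 was lower in them only in the library labelled NOD.Cxcl16-/-, at 80.23 against 198.4 CPM, while 178.1 and 227.4 CPM overlapped in the WT NOD library, and whether the libraries differ in this was not tested.

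CD8 T cells with the 2 integrins differed in other genes. The 129 and 78 CD8 T cells with an Itga1 UMI held Rgs1 at 737 against 438.7 CPM and 955.7 against 515.4 CPM, and Cxcr6 at 438.4 against 207.3 CPM and 557.1 against 268.4 CPM. Gzmb, the cytotoxic protease granzyme B, stood at 189.2 against 114.1 CPM and 226.5 against 87.07 CPM. Ccr7, which guides cells to lymph nodes, was lower in them, at 34.55 against 97.51 CPM and 21.14 against 129.8 CPM. Klf2 was lower in the WT NOD library, at 271.4 against 382.8 CPM, and higher in the other, at 451.4 against 342.6 CPM. The 172 and 165 CD8 T cells with an Itgae UMI held Ahr at 41.3 against 17.96 CPM and 81.03 against 39.58 CPM. They held less Eomes, a factor of circulating effector and memory cells, at 66.48 against 98.81 CPM and 36.01 against 96.99 CPM. Their Rgs1 in the WT NOD library, 448.5 against 460.7 CPM, overlapped that of the rest. Joint detection in thinned CD8 T cells did not resolve the Ahr difference. Ahr was found there in 4.17% of cells with Itgae and 4.34% without, and in 13.5% and 7.28%. These intervals overlap in both libraries.

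Itgb7 in conventional T cells went with the exit receptor. The 697 and 516 CD8 T cells with an S1pr1 UMI held Itgb7 at 181.7 CPM (170.7 to 193.2) against 126.8 CPM (120.4 to 133.4), and at 187.9 CPM (175.5 to 201.1) against 126.1 CPM (118.6 to 134). The levels in CD4 T cells were 155.2 against 98.33 CPM and 144.7 against 89.03 CPM. The same CD8 T cells held Klf2 at 620.1 against 258 CPM and 581.8 against 222.3 CPM, and Gzmb in the WT NOD library at 62.05 against 146.7 CPM. Cells of the CD8 gate with any UMI of 5 cell cycle genes held less S1pr1, at 48.28 against 156.7 CPM and 63.34 against 142.4 CPM, less Klf2, at 217.7 against 615.3 CPM and 198.4 against 542.9 CPM, and less Cd69, at 188.8 against 369.6 CPM and 152.2 against 366.6 CPM. Cycling cells, those with at least 2 such UMIs, made up 27.9% and 21.2% of CD8 T cells.

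Between the libraries, the genes were compared as a log2 ratio on CPM plus 1, positive where the level was higher in the library labelled NOD.Cxcl16-/-, and those past 1.5-fold were counted. Among CD8 T cells all 9 genes reached 10 CPM and 1 of them, Ahr, was past 1.5-fold, where 1.7% of 7455 genes were. Ahr stood at 20.05 and 44.6 CPM, a log2 ratio of 1.12 (0.96 to 1.35) and a fold of 2.17. It was found in 4.33% (3.5 to 5.3) and 7.5% (6.21 to 8.97) of thinned CD8 T cells, and before thinning in 9.07% and 20.4%. No gate lacked Ahr: B cells held 36.9 and 42.12 CPM, and thinned B cells showed it in 5.41% (4.33 to 6.66) and 5.78% (4.78 to 6.91), at median depths of 4585 and 4736 UMIs. These shares overlap those of CD8 T cells in each library. Median depth of CD8 T cells, 4707 and 5624 UMIs, moved with the difference, and the log2 ratio was 0.76 in thinned cells, its lowest value over the alternatives. In CD8 T cells the summed macrophage markers C1qa, Adgre1 and Cd68 stood at 15.95 and 18.32 CPM, with Adgre1 at 0 in the second library, and the summed islet hormone genes Ins1, Ins2 and Gcg at 58.07 and 117.9 CPM. Their part in the Ahr value was not tested.

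By CD8 state, naive-like cells held Ahr at 18.31 CPM (13.19 to 24.74) and 25.29 CPM (18.58 to 33.63). Their log2 ratio was 0.45 (-0.17 to 1.1), an interval that spans 0. Antigen-experienced cells held 22.79 CPM (19.6 to 26.35) and 47.58 CPM (41.89 to 53.81), which gives 1.03 (0.78 to 1.34), and the remaining CD8 T cells 17.51 and 48.15 CPM. Of the genes at 10 CPM or more, 1 of 8 members was past the fold in naive-like cells, where 8.08% of all genes were. That gene was Rgs1, at 177.8 and 275.5 CPM, a log2 ratio of 0.63 (0.44 to 0.82). In antigen-experienced cells 2 of 9 (Ahr and Itgae) were past it, where 3.26% of all genes were. Of the genes that AHR is known to induce, Tiparp stood at 71.42 and 77.19 CPM in CD8 T cells, a log2 ratio of 0.11, and Ahrr (0.4045 and 0.2339 CPM) and Cyp1a1 (0.4045 and 0.3899 CPM) were too low to compare. Arnt, which encodes the partner of AHR, stood at 30.39 and 39.84 CPM, a log2 ratio of 0.38.

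Itgae in CD8 T cells stood at 13.87 and 21.29 CPM, a log2 ratio of 0.58 (0.36 to 0.88), just inside 1.5-fold. In antigen-experienced CD8 T cells it stood at 15.4 CPM (12.8 to 18.37) and 26.33 CPM (22.15 to 31.07), which gives 0.74 (0.41 to 1.13). The value differed between settings. Mean single-cell CPM gave 0.77 in CD8 T cells. Thinned cells gave 3.47% and 3.55% of CD8 T cells with a UMI, and a log2 ratio of 0.12 in CD8 T cells and 0.20 in antigen-experienced ones. The other genes differed less in CD8 T cells: Rgs1 by 0.23 (0.18 to 0.27), Itga4 by 0.14, S1pr1 by 0.1, Itgb7 by 0.03, Cd69 by -0.08, Klf2 by -0.11 (-0.16 to -0.05) and Itga1 by -0.11. The median over the 9 genes was 0.099, beside 0.041 over all genes.

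CD4 T cells had 7 of the genes at 10 CPM or more and 0 past 1.5-fold, where 2.13% of 7590 genes were. Ahr was nearest, at 52.69 and 75.69 CPM, a log2 ratio of 0.51 (0.34 to 0.71). Klf2 stood at 458.5 and 363.7 CPM, a log2 ratio of -0.33 (-0.41 to -0.26), Cd69 at -0.24, and S1pr1 at 0.18, so Klf2 and its target differed in opposite directions. Ahr was 25.3 and 30.4 CPM in naive-like, 81.48 and 93.24 CPM in antigen-experienced and 49.7 and 86.55 CPM in the remaining CD4 T cells. The count past the fold was 0 of 7 in naive-like cells, where 10.7% of genes were past it, and 0 of 8 in antigen-experienced cells, where 7.8% were. In the antigen-experienced cells S1pr1 stood at 134.4 and 178.6 CPM, a log2 ratio of 0.41, and Cd69 at 279.5 and 205.4 CPM, a log2 ratio of -0.44.

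Treg had 2 of 8 genes past 1.5-fold, both lower in the library labelled NOD.Cxcl16-/-, where 7.17% of 7710 genes were past it. Itgae stood at 120.3 and 71.64 CPM, a log2 ratio of -0.74 (-1.02 to -0.47), and was found in 24.9% (19.6 to 30.8) and 16.6% (13.1 to 20.6) of thinned Treg, where B cells gave 0.326% and 0.258%. Before thinning, 38% and 31.4% of Treg and 0.665% and 1.36% of B cells held it, and the median depth of Treg was 4455 and 4993 UMIs. Cd69 stood at 270.3 and 178.2 CPM, a log2 ratio of -0.6 (-0.78 to -0.42). Cycling cells made up 16.2% and 19.1% of Treg, and without them the log2 ratios were -0.58 for Itgae and -0.47 for Cd69, both inside 1.5-fold. With doublets kept 0 members were past it. The summed islet hormone genes stood at 373.8 and 151 CPM in Treg, and their part in both values was not tested. Of 11 dissociation and immediate-early genes in Treg, 2 were lower past 1.5-fold (Jun and Egr1), 1 was above 0 and the median was -0.26. Their part in the Cd69 value was not tested. Ahr stood at 65.68 and 93.72 CPM, a log2 ratio of 0.51 (0.2 to 0.84), and S1pr1 at -0.23, Klf2 at -0.37, Itga4 at 0.27, Rgs1 at -0.07 and Itgb7 at 0.03. Itgae was thus lower in Treg and higher in antigen-experienced CD8 T cells of the same library, a contrast that was not tested.

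**Figure D4:**
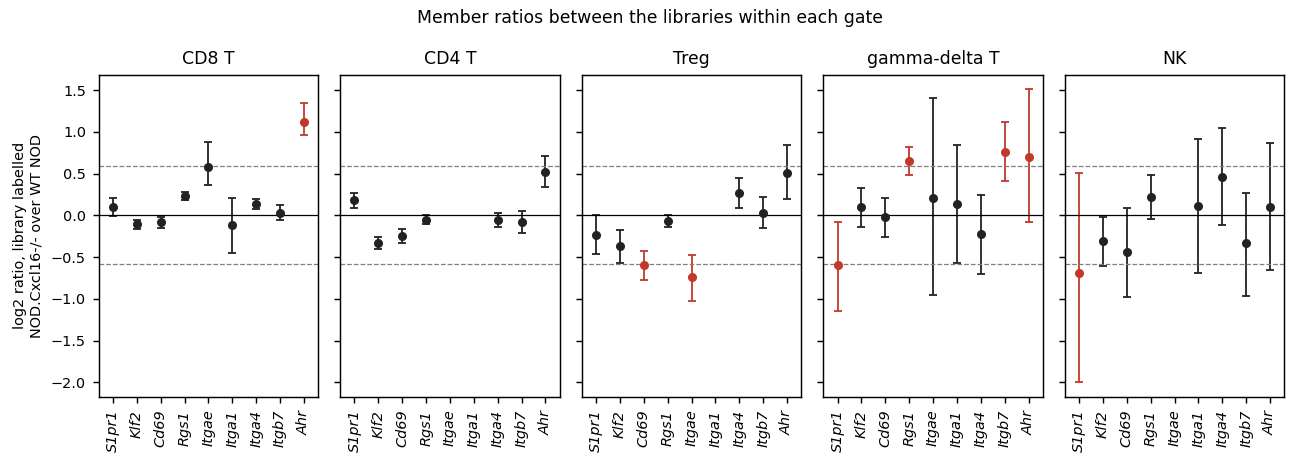
The log2 ratio between libraries (CPM plus 1, positive where the one labelled NOD.Cxcl16-/- is higher) is plotted with its counting interval for the genes at 10 CPM or more in CD8 T, CD4 T, Treg, gamma-delta T and NK cells, and dashed lines mark 1.5-fold. Points past the lines are red: Ahr in CD8 T cells, Cd69 and Itgae in Treg, 4 genes in gamma-delta T cells and S1pr1 in NK cells.

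Gamma-delta T cells had 4 of 9 genes past 1.5-fold, where 29.9% of 7583 genes were, in gates of 121 and 100 cells. At such a share single genes cannot be read, and fewer members were past it with doublets kept. Rgs1 stood at 951.3 and 1490 CPM, a log2 ratio of 0.65 (0.48 to 0.81), Itgb7 at 207.8 and 352.4 CPM, a log2 ratio of 0.76 (0.41 to 1.12), Ahr at 45.56 and 74.29 CPM, a log2 ratio of 0.69 (-0.08 to 1.51), and S1pr1 at 154.9 and 101.9 CPM, a log2 ratio of -0.6 (-1.15 to -0.08). Klf2 (0.09), Cd69 (-0.02), Itgae (0.21), Itga1 (0.14) and Itga4 (-0.23) lay inside it. The summed islet hormone genes stood at 7.29 and 108.3 CPM, and their part was not tested. The gamma-delta markers outside the gate, Sox13, Il17a, Trgv2, Blk and Cd163l1, summed to 605 and 1176 CPM with none at 0. Cd163l1 stood at 299 and 724 CPM, Blk at 74.7 and 212, Il17a at 63.8 and 121 and Sox13 at 16.4 and 31.8 CPM. Trgv2 went the other way, at 151 and 87 CPM. The gate was split by any UMI of Il23r or Il17a, genes of the interleukin-17 type of gamma-delta T cell. This split was chosen after the values were seen. Such cells were 25 of 121 and 39 of 100.

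The split cells differed in these genes within each library. Cells with either gene held Itgb7 at 434.1 CPM against 155 CPM and at 516.1 against 249.2 CPM, and Cxcr6 at 993.7 against 251.7 CPM and 1521 against 449.9 CPM. Their Klf2 was lower, at 328 against 653.8 CPM and 291 against 847.8 CPM, and their Itga4 stood at 0 against 202.2 CPM and 65.89 against 186.9 CPM. S1pr1 was 86.83 CPM (39.7 to 164.8) against 170.8 CPM (134.5 to 213.7) in the WT NOD library, which overlap, and 10.98 CPM from 2 UMIs against 159.2 CPM in the other. Rgs1 was 1129 against 910 CPM, which overlap, and 2498 against 854.7 CPM. Cd69 was 636.7 against 597.7 CPM, which overlap, and 905.9 against 401.4 CPM. Among cells with neither gene, the libraries overlapped for S1pr1, at 170.8 and 159.2 CPM, and for Rgs1, at 910 CPM (823.5 to 1003) and 854.7 CPM (751.5 to 968.2). Itgb7 in those cells stood at 155 CPM (120.6 to 196.2) and 249.2 CPM (194.9 to 313.8). The share of the gate with Il23r or Il17a was higher in the library labelled NOD.Cxcl16-/-. Its part in the levels of the whole gate was not tested.

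**Figure D5:**
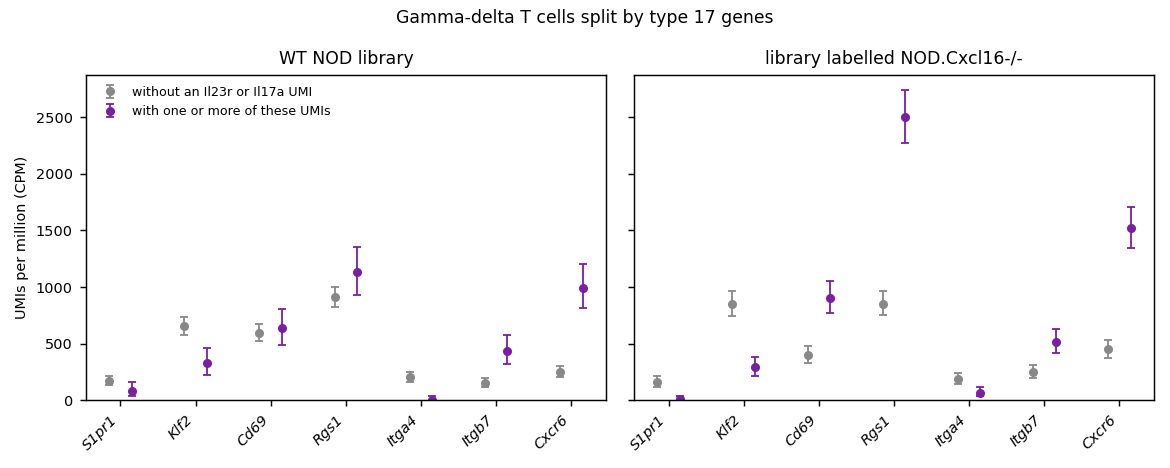
Levels (CPM, linear axis from 0) of S1pr1, Klf2, Cd69, Rgs1, Itga4, Itgb7 and Cxcr6 are plotted for gamma-delta T cells with and without a UMI of Il23r or Il17a in each library, with exact Poisson intervals. Itgb7 and Cxcr6 are higher and Klf2 and Itga4 lower in the cells with either gene in both libraries.

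NK cells had 1 of 8 genes past 1.5-fold, where 34.6% of 7527 genes were, a share at which single genes cannot be read. That gene was S1pr1, at 54.14 and 33.15 CPM, a log2 ratio of -0.69 (-2.0 to 0.5), which turned to 0.08 when 2 UMIs of the positive marker were asked for. Klf2 stood at 729.3 and 586.8 CPM and Cd69 at 238.8 and 175.7 CPM, with log2 ratios of -0.31 and -0.44, and of the 11 dissociation and immediate-early genes 6 were lower past 1.5-fold and none was above 0. Within the gate, the 32 and 31 cells with an Eomes UMI, as circulating-type NK cells have, held Rgs1 at 450.1 against 929.4 CPM and 513.9 against 1154 CPM. In B cells 1 of 7 genes was past the fold, where 6.57% of genes were: Rgs1, at 103.5 and 156.1 CPM, a log2 ratio of 0.59.

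The other genes of the pathways were counted in CD8 and CD4 T cells, where 1.7% and 2.13% of all genes were past 1.5-fold between the libraries. Of 11 exit and circulation genes, 8 could be compared in CD8 T cells and 5 in CD4 T cells, and 0 were past 1.5-fold in either (medians 0.032 and -0.077). Of the 15 residency genes, 13 were compared in each, with 0 past the fold in CD8 T cells (median 0.14). In CD4 T cells Xcl1, a chemokine, was higher at 56.77 and 98.25 CPM and Isg20 lower at 42.86 and 24.25 CPM (median 0.069). Of 4 AHR pathway genes compared, 0 were past the fold in either gate (medians 0.2 and 0.12). Of 6 integrin partners, Itgav, the alpha V chain that activates TGF-beta, was higher in CD8 T cells at 46.92 and 72.98 CPM, and 0 were past it in CD4 T cells (medians 0.1 and 0.091). Of 7 TGF-beta signalling genes, Tgfbr1, a receptor chain, was higher in CD8 T cells at 14.45 and 23.16 CPM and 0 in CD4 T cells (medians 0.039 and -0.09). Of the S1P handling genes 2 and of the RGS family 6 were compared, with 0 past the fold in either gate. In CD8 T cells Hspa1a was the 1 of 11 dissociation genes past it, at 100.2 and 151 CPM.

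For each member the 3 genes with the most similar level over the 6 lymphoid gates of both libraries were sought by Pearson correlation of log2(CPM + 1) over 12 points, of 7753 genes. The points share libraries and depth and include the small ILC2 gate, so the coefficients are descriptions. For S1pr1 they were Snx25 (0.973), Gprin3 (0.972) and Rcbtb1 (0.972), and for Klf2 Ehd3 (0.9), Mfsd6 (0.868) and Tapt1 (0.865). Cd69 was followed most closely by Rps21 (0.953), Pard3 (0.944) and Rpl19 (0.939), of which the first and last encode ribosomal proteins, and Rgs1 by Egln3 (0.957), Cd53 (0.94) and Gbp7 (0.921). For Itga1 they were Cables1 (0.988), Klra1 (0.98), which encodes an NK receptor, and Aim2 (0.976). Itgae was matched by Med11 (0.897), Ap3b1 (0.894) and Reps1 (0.892), Itga4 by Mcm6 (0.961), Gdi2 (0.96) and Mrps17 (0.959), Itgb7 by Il12rb1 (0.892), Slfn8 (0.876) and Ero1l (0.874), and Ahr by Osbpl8 (0.895), Rab8b (0.879) and Lrrfip2 (0.878). Between members the same measure was -0.0309 for S1pr1 with Klf2, 0.732 for S1pr1 with Itgae and 0.763 for Rgs1 with Itgb7. The value for S1pr1 with Klf2 is across gates, and their joint detection above is between cells of a gate.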

How the data were processed

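Single-cell libraries of islet leukocytes were measured in 2 samples, 1 per genotype. Each deposited matrix gives unnormalised UMI counts by gene and barcode, made with Cell Ranger 7.0.1 on mm10, per the submitters' processing notes; whether intronic reads and strand were counted is not given in the sources used here. Barcodes with under 500 genes (1582 and 311) or over 10% mitochondrial UMIs (53 and 84) were left out, as were the highest doublet scores from simulated doublets (1537 and 891).

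Gates used raw UMIs of fixed markers, with at least 2 CD3 UMIs for T cells and at most 1 UMI of B or myeloid markers. Naive-like and antigen-experienced gates used Ccr7, Lef1, Cxcr6, Pdcd1 and Ccl5, a choice made after the data were seen; some planned markers, and results that need them, are not reported here. Counts were summed per gate and library and scaled to CPM, and ratios used a pseudocount of 1 CPM. A gene counted in a comparison had a mean of at least 10 CPM over the compared groups, and a gate needed at least 50 cells in each library. No test was run, since each group has 1 library. Joint detection used cells thinned to 2000 UMIs. All 9 members are described by gate, with fewer values for small or low ones. Of the other lists, genes past 1.5-fold between libraries in CD8 or CD4 T cells are named, at most 4 a list; those named in other comparisons were chosen after their values were seen. The members and lists were chosen with earlier results of these data known. Coordinates are from GENCODE M21, in which 32158 of the 32285 gene IDs occur. The steps were tested on simulated data. Python 3.11.15, numpy 2.4.6, scipy 1.17.1, pandas 2.3.3 and scikit-learn 1.9.0 were used.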

Additional observations from a re-analysis of the deposited data

Results flagged for a closer look

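Itgae differed in opposite directions between the libraries in 2 cell types. Its log2 ratio between libraries, positive where the one labelled NOD.Cxcl16-/- was higher, was 0.737 in antigen-experienced CD8 T cells and -0.74 in Treg, and with 1 library per group the difference between the cell types was not tested. Some settings put each inside 1.5-fold: the first was 0.204 in thinned cells, and the second -0.576 without cycling cells, -0.525 with doublets kept and -0.544 by mean single-cell CPM.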

How the results depend on the processing

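Counts of members past 1.5-fold moved under these settings. With doublets kept, the count was 1 in CD4 T cells (Itgae), 0 in Treg, 2 in gamma-delta T cells (Rgs1 and Itgb7) and 0 in NK cells. Mean single-cell CPM gave 2 in CD8 T cells (Itgae and Ahr), 1 in Treg (Ahr) and 0 in NK cells. Leaving out cycling cells gave 2 in CD8 T cells (Itgae and Ahr) and 0 in Treg. NK cells gave 3 when thinned to 2000 UMIs, 0 with 2 UMIs of the positive marker and 2 with no filter on low values, where CD4 T cells gave 1 (Itgae). A CD4 gate without Cd4, chosen after seeing the data, gave 1 (Ahr). The S1pr1 log2 ratio in NK cells reversed to 0.0824 with 2 UMIs of the positive marker. Odds ratios of S1pr1 with Klf2, with cells thinned to a lower depth of 1000 UMIs, were 2.7 in CD8 T cells of the WT NOD library and 3.11 and 2.88 in CD4 T cells. Unthinned, the CD8 T cells of the library labelled NOD.Cxcl16-/- gave 6.57, and with doublets kept 5.19 in its CD4 T cells. In unthinned CD8 T cells of the WT NOD library S1pr1 with Cd69 gave 1.8 and Klf2 with Rgs1 0.827. The cause was not tested. Of 495 log2 ratios over all alternatives, 442 moved by less than their counting interval. Ahr in CD8 T cells ranged from 0.758 to 1.13, and Itgae in Treg from -1.59 to -0.525. Over all genes, thinning took the number past 1.5-fold from 127 to 341 in CD8 T, 162 to 396 in CD4 T, 243 to 687 in antigen-experienced CD8 T, 553 to 1524 in Treg and 2602 to 3943 in NK cells. No filter gave 769 in CD8 T, 1131 in CD4 T, 4019 in Treg, 6199 (from 2265) in gamma-delta T and 6532 in NK cells, mean single-cell CPM 310 in CD8 T and 662 in antigen-experienced CD8 T cells, 2 UMIs of the positive marker 259 in CD4 T and 1293 in Treg, a pseudocount of 5 CPM 102 in CD4 T, 132 in antigen-experienced CD8 T and 339 in Treg, and doublets kept 368 in Treg. No paired analysis was possible because each group has 1 library. Low counts limit Itga1, and the ILC2 gate is too small to compare.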
